A study of Mus musculus with 8 samples.

Results

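The 9 genes described here handle retinoic acid and vitamin D in cells: Aldh1a1, Aldh1a2, Aldh1a3, Crabp1, Crabp2, Rarb, Cyp26b1, Vdr and Cyp24a1. They were listed by name and found through the platform annotation, which gave them 13 of the 45101 probe sets on the array and made them 9 of 18193 genes named by 1 symbol. The list was selected on the measured signals of Cyp24a1 and Crabp2, which changed strongly on these same arrays, so the levels of those 2 genes are given as a description with no test, and counts of members cover the other 7. Total RNA of mouse cerebral cortex was hybridised to 8 Affymetrix arrays, 2 in each of 4 groups. The groups were fibroblast growth factor 2 with U0126 (FGF2+U0126), which blocks the kinase MEK upstream of ERK, FGF2 with SB202190 (FGF2+SB202190), which blocks the kinase p38, FGF2 alone, and vehicle. The series title speaks of astroglia, while the samples are labelled as cortex, and the sources used here give no dose, time or strain, nor whether replicates came from separate cultures or animals. The p-values therefore rest on a spread between arrays that may be technical. The label of FGF2+SB202190 replicate 2 names its treatment type as acclimatization, where the other 7 say wait.

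Retinoic acid is made from retinol in steps: retinol dehydrogenases such as Rdh10 form retinaldehyde, and the Aldh1a enzymes oxidise it to the acid. Crabp1 and Crabp2 carry retinoic acid in the cytoplasm, receptors of the Rar family pair with Rxr receptors on DNA to switch genes on or off, and Cyp26 enzymes break the acid down. In developing brain the meninges are a known source of retinoic acid through Aldh1a2. Vitamin D works by a parallel design, in which its active form binds Vdr, Vdr pairs with Rxr, and Cyp24a1, a classical Vdr target, inactivates the hormone.

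Rarb is itself a textbook target of retinoic acid receptors, so its promoter is shown with those of the 2 other members in which letters of the receptor half-site were found. Promoters of 6 of the 9 genes were matched in RefSeq (GRCm38.p6), and the 250 bases before the start were searched on both strands for the half-site hexamers AGGTCA or else GGGTCA, as well as AGTTCA or else GGTTCA, singly or in a direct repeat with a gap of 2, 3 or 5 bases. Each sequence runs 5′ to 3′ on the gene's strand and ends at the base before the start, and capitals mark the hexamers, also where they lie on the opposite strand.
Rarb, chr14:16575477-16575726, minus strand: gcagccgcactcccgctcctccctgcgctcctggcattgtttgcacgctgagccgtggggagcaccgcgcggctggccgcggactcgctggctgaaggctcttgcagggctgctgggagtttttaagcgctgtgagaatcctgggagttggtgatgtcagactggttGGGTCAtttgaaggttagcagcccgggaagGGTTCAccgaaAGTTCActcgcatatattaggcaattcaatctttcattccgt
Vdr, chr15:97908297-97908546, minus strand: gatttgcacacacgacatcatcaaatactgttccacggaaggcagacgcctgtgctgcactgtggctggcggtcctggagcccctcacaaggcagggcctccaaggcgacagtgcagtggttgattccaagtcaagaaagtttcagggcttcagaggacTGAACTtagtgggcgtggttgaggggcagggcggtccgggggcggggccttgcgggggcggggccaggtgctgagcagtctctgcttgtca
Aldh1a1, the second of 2 starts, chr19:20601718-20601967, plus strand: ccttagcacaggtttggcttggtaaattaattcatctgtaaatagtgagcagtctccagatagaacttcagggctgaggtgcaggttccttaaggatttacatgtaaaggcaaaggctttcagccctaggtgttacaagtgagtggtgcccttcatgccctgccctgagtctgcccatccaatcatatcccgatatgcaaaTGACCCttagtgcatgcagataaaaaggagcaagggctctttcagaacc
The Rarb window held GGTTCA and AGTTCA as a direct repeat with a gap of 5, from -53 to -37 relative to the start, and a single GGGTCA from -83 to -78. A repeat with that gap was found in 29 of 32817 promoters (0.0884%), one with a gap of 2 in 0.174% and one with a gap of 3 in 0.0396%. The Vdr window held AGTTCA on the opposite strand from -91 to -86, and the Aldh1a1 window held GGGTCA on the opposite strand from -49 to -44. Single hexamers were found in 38.6% of all promoters. The windows of Aldh1a2, Crabp1, Cyp26b1 and the first start of Aldh1a1 held none of these letters. Such a match is a run of letters and not a measured binding site.

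Signals are the deposited intensities on a linear scale, which the authors had scaled to a common trimmed mean of 150.001 on every array, with medians between 22.3 and 27.8. Of 11 genes that cortex does not use, the signals ran from 0.603 to 53.3 with a median of 8.04. The pancreatic gene Cela1 held the upper end, and the other 10 stayed at or below 28.6, so a signal under about 53.3 was not told apart from that of genes not in use. Log2 changes were computed on quantile-normalized log2(value + 1.77), for each gene's brightest probe set. The added 1.77 draws the change of low signals towards 0, but the normalization can also enlarge it. For Aldh1a3, a low signal, the change in FGF2 against vehicle was 1.63 with normalization and 1.355 without. A gene was called at a limma p adjusted by Benjamini and Hochberg under 0.05 over 13173 genes above a low-signal filter, which all 9 members passed. All 10 astrocyte markers were measured, with a median mean signal of 1209, while the highest microglial and endothelial markers averaged 38.1 and 47.4. Meningeal fibroblast and pericyte markers were also high, with a median of 475 over 13 genes. Single markers of other cell types were high too, such as Olig1 and the neuronal and oligodendrocyte markers with the highest means, 1654 and 2067. The medians of those lists were under 53.3, at 13.9 for neuron, 17.7 for oligodendrocyte and 31.2 for oligodendrocyte precursor markers. The Actb 3′ to 5′ ratio was 1.28 and 1.26 in FGF2+U0126 samples, against 1.31 to 1.41 in the other 6. That of Gapdh was 0.745 and 0.758 in FGF2+U0126 samples, within the 0.697 to 0.777 of the other 6.

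FGF2 moved these genes in both directions. Compared with vehicle, 3 of the 7 members (Aldh1a3, Crabp1, Rarb) were called higher in FGF2 samples, where 18.9% of all genes were, and 3 (Aldh1a1, Aldh1a2, Cyp26b1) were called lower, where 19.0% were. Vdr was not called. The median log2 change was -0.50 over the 7 members and -0.0040 over all genes. Adding U0126 to FGF2 lowered 3 of 7 (Aldh1a2, Crabp1, Rarb) against FGF2 alone, where 10.5% of all genes were lower, and raised none, where 11.7% were higher. Their median log2 change was -0.99, and that of all genes 0.030. Adding SB202190 gave no limma call among the 7, with 1.32% of all genes higher and 1.7% lower. Of the 7, 3 had an unadjusted limma p under 0.05, but the share of all genes at that level was not counted. FGF2 samples enter all 3 comparisons, so these are not independent of each other. The list was made with results in view, and nothing is read from its share of calls.

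**Figure D1:**
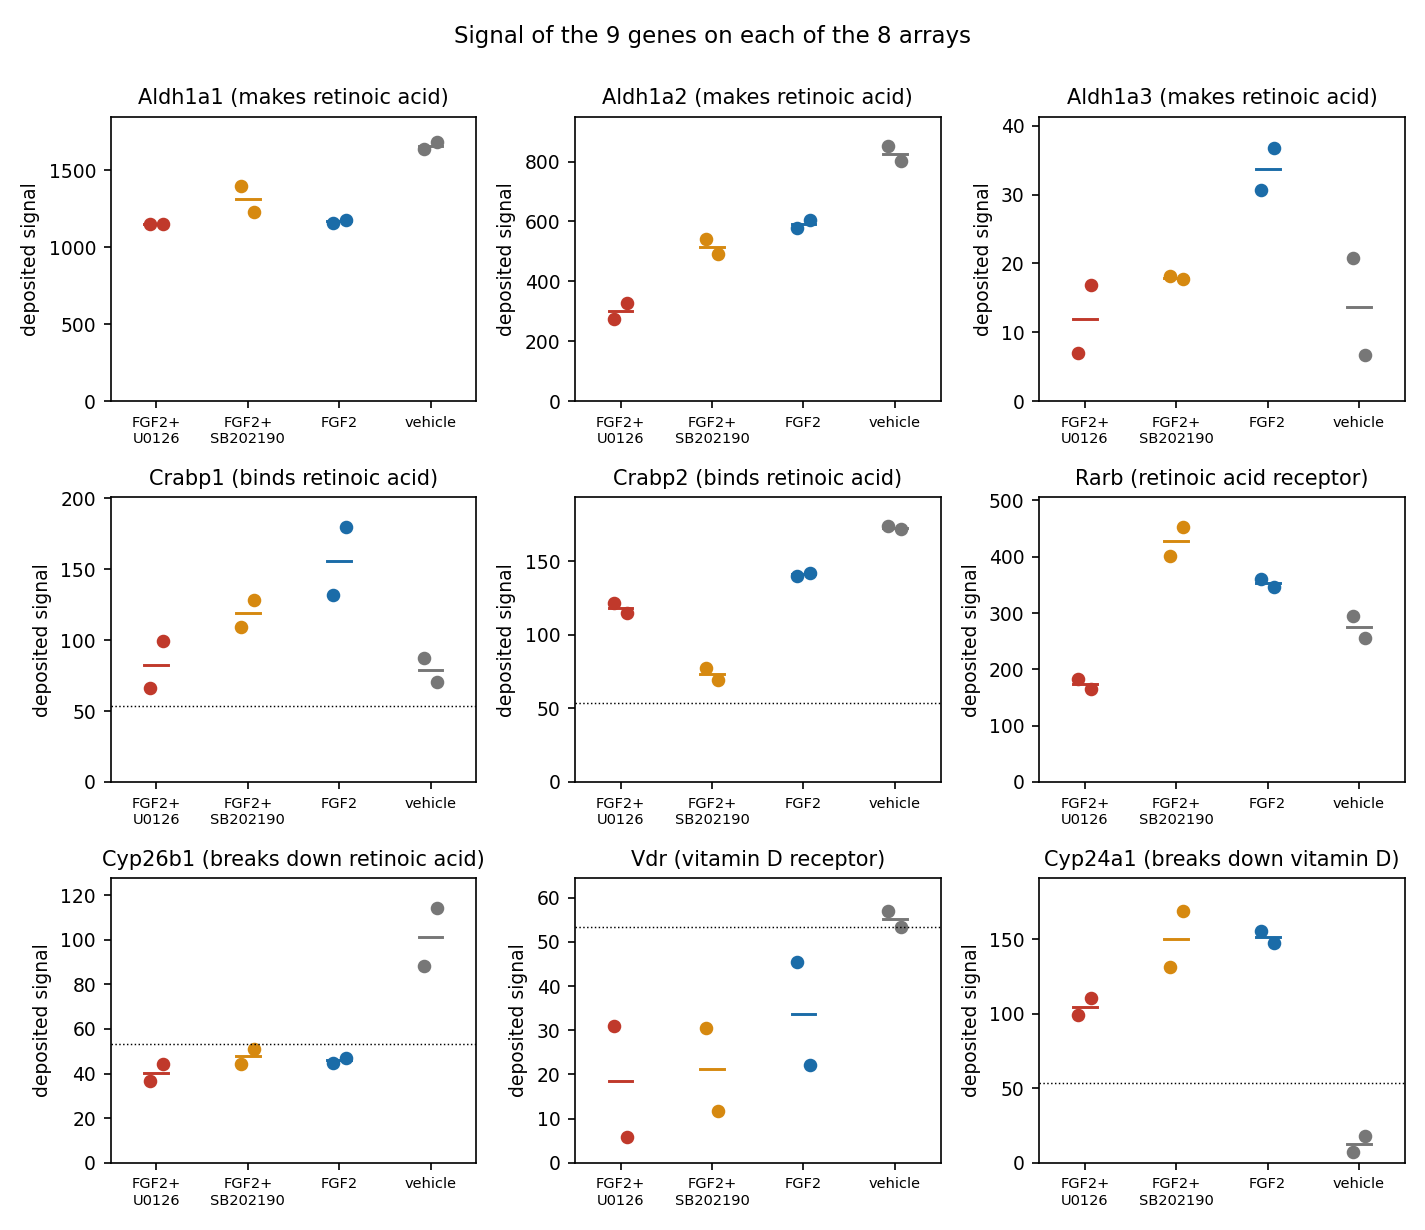
Deposited signal (linear axis from 0) of the representing probe set of each gene on every array, with groups from FGF2+U0126 to vehicle on the x axis, points for the 2 arrays and a line for their mean. The dotted line in the panels with low signals is 53.3, the highest signal of a gene that cortex does not use. Cyp24a1 lies below it in vehicle alone, and Aldh1a3, drawn without the line, lies below it everywhere.

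Of the enzymes that make retinoic acid, Aldh1a1 had the highest signal and was lowered by FGF2 whether or not an inhibitor was present. Its signal was 1147 and 1148 in FGF2+U0126 samples, 1397 and 1228 in FGF2+SB202190 samples, 1157 and 1179 in FGF2 samples, and 1635 and 1683 in vehicle samples. Every array with FGF2 lay below both vehicle arrays. The log2 change was -0.54 ± 0.07 (SE) for FGF2 against vehicle (adjusted p = 2.91e-05), a ratio of mean signals of 0.704. With U0126 added it differed from FGF2 by -0.04 ± 0.07 (adjusted p = 0.755) and with SB202190 by 0.16 ± 0.07 (adjusted p = 0.224). Both inhibitor groups stayed below vehicle, by -0.57 ± 0.07 with U0126 (adjusted p = 2.49e-05) and by -0.37 ± 0.07 with SB202190 (adjusted p = 5.95e-04). That last call was lost when arrays were centred on the median (adjusted p = 0.267, log2 change -0.13).

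Aldh1a2, the enzyme known for retinoic acid synthesis in the meninges and the embryo, was lowered by FGF2 and lowered further when U0126 was added. The signal was 276 and 327 in FGF2+U0126 samples, 542 and 489.6 in FGF2+SB202190 samples, 579 and 606 in FGF2 samples, and 851 and 802 in vehicle samples. FGF2+U0126 was the lowest group, vehicle was the highest, and no 2 groups overlapped. FGF2 samples stood at a ratio of 0.717 to vehicle (log2 change -0.50 ± 0.09, adjusted p = 7.80e-04), a call lost under median centring (adjusted p = 0.0561, log2 change -0.28). FGF2+U0126 samples stood at 0.509 of FGF2 samples (log2 change -0.99 ± 0.09, adjusted p = 8.78e-06). For SB202190 the log2 change against FGF2 was -0.20 ± 0.09 (adjusted p = 0.284). Between the inhibitors, Aldh1a2 was lower with U0126 by -0.78 ± 0.09 (adjusted p = 5.80e-05).

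The markers of meningeal cells were mostly lower in FGF2 than in vehicle samples, as Aldh1a2 was. The summed signal of the 13 meningeal fibroblast and pericyte markers was 15694 and 15473 in FGF2+U0126 samples, 15288 and 13602 in FGF2+SB202190 samples, 15246 and 17999 in FGF2 samples, and 22170 and 21399 in vehicle samples. Igfbp2 alone made up a large part of these sums. It had 7969 and 7804 in FGF2+U0126, 7356 and 6562 in FGF2+SB202190, 7522 and 9778 in FGF2, and 8090.5 and 7420 in vehicle samples. Its mean was not lower in FGF2 than in vehicle samples (ratio 1.12). Of the 12 markers on this list that were tested, 9 were lower and 1 higher in FGF2 against vehicle, with a median log2 change of -0.79. In FGF2+U0126 against FGF2, where Aldh1a2 changed by -0.99, 2 were lower and 1 higher, with a median of -0.01. Astrocyte markers summed to 14248 and 14367 in FGF2+U0126, 10454 and 9986 in FGF2+SB202190, 11111 and 10934 in FGF2, and 21491 and 21134 in vehicle samples. All 10 astrocyte markers were lower in FGF2 against vehicle, and 7 were higher in FGF2+U0126 against FGF2. No list had a marker listed at 0, and the part of either list in the changes of the members was not tested. In bulk RNA, fewer cells of a type and less RNA per cell cannot be told apart.

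Aldh1a3 had low signal and its 3 probe sets did not move alike. The brightest, 1448789_at, had 7.02 and 16.9 in FGF2+U0126 samples, 18.2 and 17.7 in FGF2+SB202190 samples, 30.6 and 36.8 in FGF2 samples, and 20.8 and 6.69 in vehicle samples. FGF2 samples were the highest group, yet all 8 values lay within the range of genes that cortex does not use. The log2 change for FGF2 against vehicle was 1.63 ± 0.57 (adjusted p = 0.0381), and 8 of 16 alternatives lost the call. It was 0.90 without vehicle replicate 2 (adjusted p = 0.276), 1.75 without FGF2 replicate 1 (adjusted p = 0.103) and 1.51 without FGF2 replicate 2 (adjusted p = 0.169). Leaving out FGF2+SB202190 replicate 1 or 2 also lost it, at log2 changes of 1.61 and 1.63. The other probe sets, 1417642_at and 1427395_a_at, had overlapping groups. In a limma fit of every probe set without the filter they changed by 0.64 ± 0.89 (adjusted p = 0.707) and 0.17 ± 0.67 (adjusted p = 0.912). In that same fit 1448789_at was not called either (1.63 ± 0.60, adjusted p = 0.0835).

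Crabp1, a binding protein thought to hold retinoic acid in the cytoplasm, was raised by FGF2 and was lower again with U0126. Its signal was 66.2 and 99.4 in FGF2+U0126 samples, 109.5 and 128 in FGF2+SB202190 samples, 132 and 180.1 in FGF2 samples, and 87.3 and 70.6 in vehicle samples. Both FGF2 arrays exceeded all others, and FGF2+U0126 overlapped vehicle. The log2 change was 1.03 ± 0.21 in FGF2 against vehicle (adjusted p = 0.00193, ratio of means 1.98), a call kept in all 18 alternatives. It was -0.91 ± 0.21 in FGF2+U0126 against FGF2 (adjusted p = 0.00818, ratio 0.530). This call was lost without FGF2 replicate 2 (log2 change -0.68, adjusted p = 0.105), without FGF2+U0126 replicate 1 (-0.61, adjusted p = 0.0895) and without the intensity trend (adjusted p = 0.0723). In FGF2+SB202190 against FGF2 the change was -0.37 ± 0.21 (adjusted p = 0.416).

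Crabp2, which delivers retinoic acid to the receptors, had its lowest level with SB202190. Its signal was 122 and 115 in FGF2+U0126 samples, 77.3 and 69.0 in FGF2+SB202190 samples, 140.1 and 142 in FGF2 samples, and 174 and 171 in vehicle samples. The 4 groups formed a descending order of vehicle, FGF2, FGF2+U0126 and FGF2+SB202190 with no overlap, and the widest gap was below FGF2+U0126. FGF2+SB202190 samples stood at 0.519 of the FGF2 mean (log2 change -0.92 ± 0.13). FGF2+U0126 samples stood at 0.838 of it (-0.26 ± 0.13), and FGF2 samples at 0.817 of vehicle (-0.26 ± 0.13). The direct difference of FGF2+U0126 from FGF2+SB202190 was 0.66 ± 0.13 on the log2 scale. These values chose the gene and carry no test. Over the 8 arrays the genes with the most similar pattern were Cd9 (r = 0.984), Smpdl3b (0.979), Unc119b (0.967), Cdc42ep4 (0.965) and the FGF receptor Fgfr2 (0.961), a description over arrays that fall into 4 groups. Fgfr2 averaged 467 ± 1.96 in FGF2+U0126, 372 ± 25.6 in FGF2+SB202190, 480.0 ± 0.872 in FGF2 and 591 ± 0.387 in vehicle samples (SD, n = 2 each). This is the same order as Crabp2, which the choice of Fgfr2 by this correlation out of 13173 genes made likely.

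**Figure D2:**
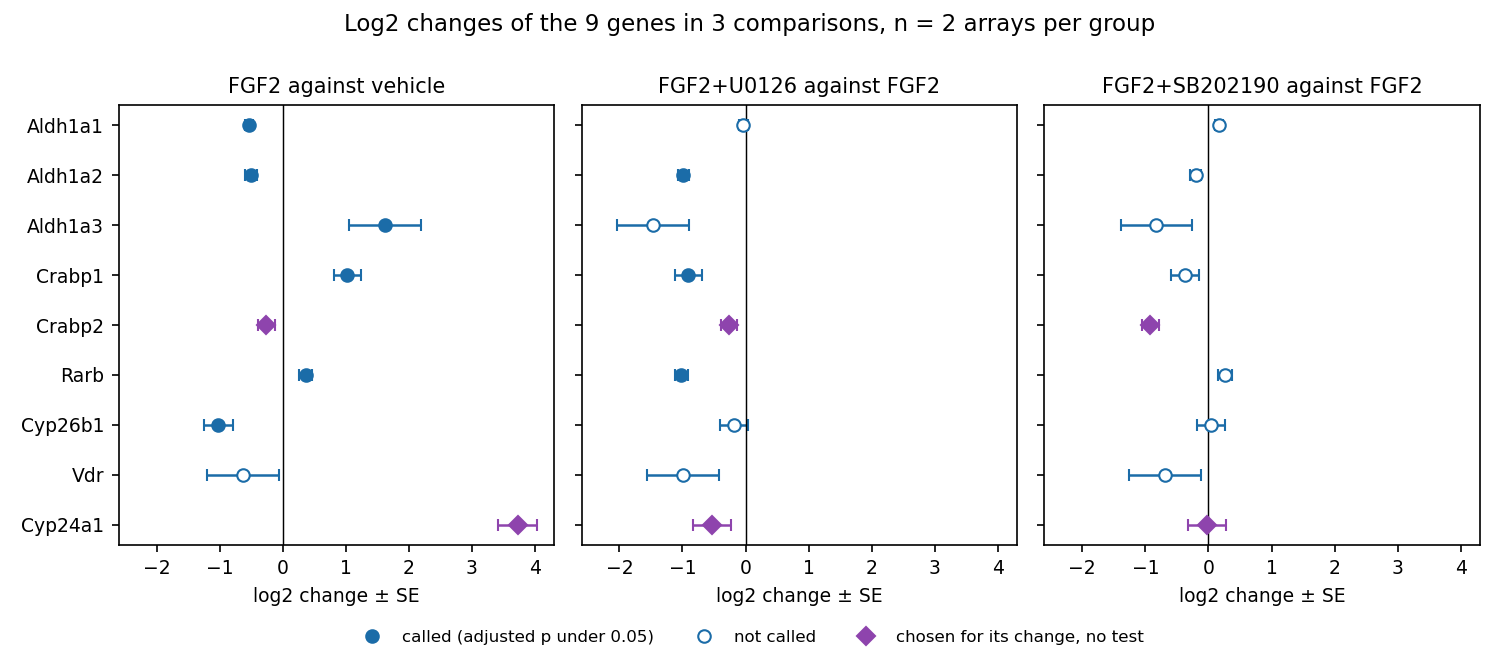
Log2 change with its SE (x axis) of the 9 genes in 3 comparisons, from limma with 2 arrays per group. Filled circles passed an adjusted p of 0.05, open circles did not, and diamonds are the 2 genes chosen for their changes. Aldh1a2, Crabp1 and Rarb are the filled points in the comparison of FGF2+U0126 with FGF2, all left of 0.

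Rarb, a receptor whose own gene answers to retinoic acid, split the inhibitors most clearly among the tested members. Its signal was 183 and 166 in FGF2+U0126 samples, 401 and 454 in FGF2+SB202190 samples, 361 and 346 in FGF2 samples, and 294 and 255 in vehicle samples. No 2 groups overlapped, with FGF2+U0126 the lowest and FGF2+SB202190 the highest. In FGF2+U0126 the level was below FGF2 (log2 change -1.02 ± 0.11, adjusted p = 2.01e-05, ratio of means 0.493) and below vehicle (-0.65 ± 0.11, adjusted p = 3.62e-04). Both calls were kept in all 18 alternatives. In FGF2+SB202190 it was above vehicle (0.63 ± 0.11, adjusted p = 3.78e-04), while the difference from FGF2 was 0.26 ± 0.11 (adjusted p = 0.213). The direct difference between the inhibitors was -1.28 ± 0.11 (adjusted p = 2.58e-06). Against vehicle, FGF2 alone raised Rarb by 0.36 ± 0.11 (adjusted p = 0.0144, ratio 1.29). That smaller call was lost without vehicle replicate 2 (0.27, adjusted p = 0.121), without FGF2 replicate 1 (0.34, adjusted p = 0.0865), without FGF2 replicate 2 (0.39, adjusted p = 0.0503) and without the intensity trend (adjusted p = 0.0521). The repeat of half-sites with a gap of 5 printed above belongs to this gene.

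Cyp26b1, which breaks retinoic acid down, was lower in every group that received FGF2. Its signal was 36.5 and 44.1 in FGF2+U0126 samples, 44.3 and 51.0 in FGF2+SB202190 samples, 44.8 and 47.0 in FGF2 samples, and 88.1 and 114 in vehicle samples. The vehicle arrays stood alone at the top, and the 6 others lay within the range of genes that cortex does not use, so the ratio of 0.454 between FGF2 and vehicle is set by a level not told apart from background. The log2 change was -1.02 ± 0.23 in FGF2 against vehicle (adjusted p = 0.00284) and was called in all 18 alternatives. Neither inhibitor gave a called difference from FGF2, with -0.19 ± 0.23 for U0126 (adjusted p = 0.613) and 0.04 ± 0.23 for SB202190 (adjusted p = 0.952). Against vehicle the changes were -1.21 ± 0.23 with U0126 (adjusted p = 0.00113) and -0.98 ± 0.23 with SB202190 (adjusted p = 0.00401). The call with SB202190 was lost without vehicle replicate 2 (-0.77, adjusted p = 0.0560).

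On the vitamin D side, the receptor Vdr had low signals. The brighter Vdr probe set, 1418176_at, had 31.0 and 5.78 in FGF2+U0126 samples, 30.5 and 11.8 in FGF2+SB202190 samples, 45.5 and 22.0 in FGF2 samples, and 57.1 and 53.4 in vehicle samples. Vehicle was highest, but replicates of the other groups lay far apart and the values were near or within the range of genes that cortex does not use. Its log2 change in FGF2 against vehicle was -0.63 ± 0.57 (adjusted p = 0.424), while the mean of both probe sets gave a called change of -1.11 (adjusted p = 0.0341). The second, 1418175_at, had 10.7 and 17.0 in FGF2+U0126 samples, 19.7 and 21.9 in FGF2+SB202190 samples, 12.9 and 12.6 in FGF2 samples, and 43.3 and 49.4 in vehicle samples. All 8 values lay under 53.3. Its replicates lay closer, vehicle again stood above all others, and a fit of every probe set called it lower in FGF2 (-1.59 ± 0.43, adjusted p = 0.0223) and in FGF2+U0126 (-1.49 ± 0.43, adjusted p = 0.0375) than in vehicle. For FGF2+SB202190 against vehicle it gave -0.92 ± 0.43 (adjusted p = 0.184). Neither probe set was called between an inhibitor group and FGF2.

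Cyp24a1, the enzyme that inactivates the vitamin D hormone, was near background in vehicle and clearly above it wherever FGF2 was given. By 1418866_at the signal was 99.3 and 110.4 in FGF2+U0126 samples, 132 and 169 in FGF2+SB202190 samples, 155 and 148 in FGF2 samples, and 7.05 and 18.2 in vehicle samples. By 1418867_at it was 65.8 and 84.4 in FGF2+U0126 samples, 101 and 89.9 in FGF2+SB202190 samples, 76.2 and 87.1 in FGF2 samples, and 24.5 and 19.0 in vehicle samples. Both probe sets separated all FGF2 arrays from vehicle, whose signals lay among those of genes not in use. The ratio of FGF2 to vehicle means was 12 by the first and 3.76 by the second, with log2 changes of 3.72 ± 0.30 and 2.03 ± 0.23. Since the vehicle level was not told apart from background, the size is uncertain: the first was 3.13 without vehicle replicate 1, 4.37 without vehicle replicate 2 and 2.67 with a pseudocount of 16.

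The inhibitors left Cyp24a1 above vehicle. By 1418866_at the log2 change against vehicle was 3.19 ± 0.30 with U0126 and 3.70 ± 0.30 with SB202190. Against FGF2 alone it was -0.53 ± 0.30 with U0126, where the arrays did not overlap, and -0.02 ± 0.30 with SB202190, where they did. By 1418867_at the same values were -0.14 ± 0.23 and 0.22 ± 0.23. The genes with the most similar pattern over the 8 arrays were Adsl, an enzyme of purine synthesis (r = 0.997), Rab26os (0.994), the replication factor Mcm2 (0.991), the ribosomal protein gene Rpl6 (0.991) and Smim15 (0.989). These genes were picked by this correlation out of 13173, from the same Cyp24a1 values that chose it. The arrays fall into 4 groups, so high correlations were likely, and a link between these genes and Cyp24a1 was not tested. Mcm2 averaged 235 ± 12.9 in FGF2+U0126, 291 ± 0.0218 in FGF2+SB202190, 290.2 ± 17.2 in FGF2 and 116 ± 17.2 in vehicle samples (SD, n = 2 each).

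**Figure D3:**
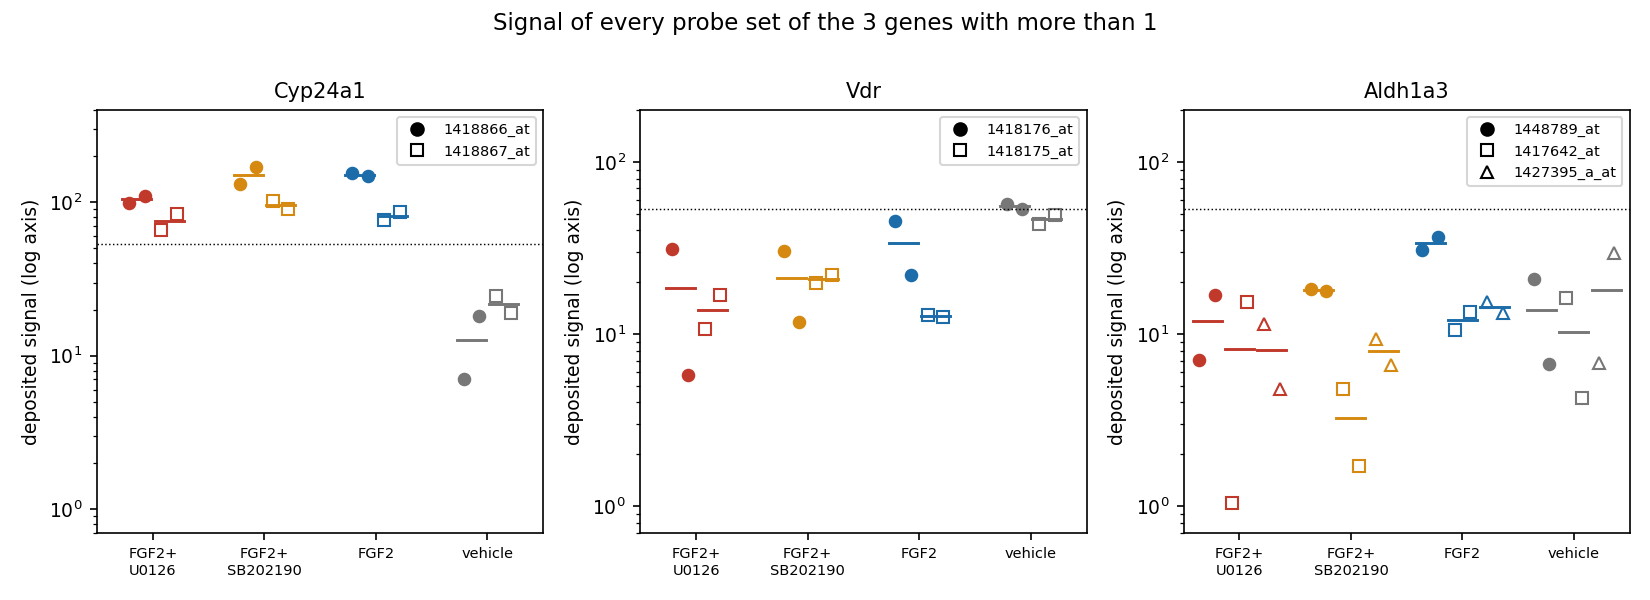
Deposited signal (log axis) of every probe set of the 3 genes with more than 1, by group on the x axis, with a point per array and a line at the mean of 2. Filled circles are the probe set that represents the gene and the dotted line is 53.3, the highest signal of a gene that cortex does not use. Both Cyp24a1 probe sets lie above the line in every FGF2 array and below it in vehicle, while the 3 for Aldh1a3 stay below it.

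Both inhibitor groups also received FGF2 and were set against the same 2 vehicle arrays, so their values are given side by side. In FGF2+U0126 samples 5 of 7 members were lower (Aldh1a1, Aldh1a2, Cyp26b1, Rarb, Vdr), where 15.0% of all genes were, and none higher, where 16.7% were. The Vdr call (-1.63 ± 0.57, adjusted p = 0.0438) was lost in 7 of 17 alternatives, among them without FGF2+U0126 replicate 2 (-0.69, adjusted p = 0.390), without vehicle replicate 1 (-1.61, adjusted p = 0.149), without vehicle replicate 2 (-1.67, adjusted p = 0.132) and without FGF2 replicate 1 (adjusted p = 0.0503). In FGF2+SB202190 samples 3 were lower (Aldh1a1, Aldh1a2, Cyp26b1), where 17.8% of all genes were, and 2 higher (Crabp1, Rarb), where 18.1% were. Vdr was not called there (-1.32 ± 0.57, adjusted p = 0.0909), but was called lower in 6 of 17 alternatives, among them without FGF2+SB202190 replicate 1 (-1.93, adjusted p = 0.0475), without FGF2+U0126 replicate 1 (adjusted p = 0.0420) and without FGF2+U0126 replicate 2 (adjusted p = 0.0325). The Crabp1 call (0.65 ± 0.21, adjusted p = 0.0292) was lost in 6 of 18 alternatives, among them without vehicle replicate 2 (0.52, adjusted p = 0.168), FGF2+SB202190 replicate 1 (0.76, adjusted p = 0.0559) or replicate 2 (0.54, adjusted p = 0.171). Directly compared, FGF2+U0126 was lower than FGF2+SB202190 in 3 of 7 (Aldh1a1, Aldh1a2, Rarb), where 10.3% of all genes were, and higher in none, where 12.4% were. For Aldh1a1 this rested on -0.20 ± 0.07 (adjusted p = 0.0468), and 14 of 18 alternatives lost it. Among them, leaving out FGF2+SB202190 replicate 1 brought the change to -0.11 (adjusted p = 0.348).

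Of 42 other genes of retinoid and vitamin D handling, 38 were in the table and 25 passed the filter. In FGF2 against vehicle 11 were lower, where 19.0% of all genes were, and 1 was higher, where 18.9% were, with a median log2 change of -0.45 against -0.0040 over all genes. All 10 astrocyte and 7 of 9 ependymal and choroid plexus markers were lower in the same comparison, and their part in these changes was not tested. The lower ones included Fabp5, a lipid carrier that also binds retinoic acid (-0.79 ± 0.07, adjusted p = 2.66e-06), and Rdh5, a retinol dehydrogenase (-0.90 ± 0.09, adjusted p = 7.53e-06). Rdh10, which makes the retinaldehyde that the Aldh1a enzymes use, was also lower (-0.57 ± 0.08, adjusted p = 1.09e-04), as was Dhrs3, which turns retinaldehyde back to retinol (-0.76 ± 0.14, adjusted p = 6.31e-04). Among receptors, Rxra (-0.86 ± 0.20, adjusted p = 0.00382), Rxrb (-0.71 ± 0.15, adjusted p = 0.00250) and Rarg (-0.58 ± 0.16, adjusted p = 0.0113) were lower. Rara gave -1.0 ± 0.58 (adjusted p = 0.204), and Rxrg and Cyp27b1 did not pass the filter. Without vehicle replicate 1 Rarg was no longer called (-0.45, adjusted p = 0.108), nor was it without FGF2 replicate 1 (-0.53, adjusted p = 0.0689), and Rxra was not called from the mean of its probe sets (-0.29, adjusted p = 0.467).

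With U0126 added, these genes went both ways. Against FGF2 alone 5 were higher, where 11.7% of all genes were, and 4 lower, where 10.5% were, with a median log2 change of 0.14 against 0.030 over all genes. Rdh5 had a signal of 491 and 548 in FGF2+U0126 samples, 173 and 167 in FGF2+SB202190 samples, 222 and 235 in FGF2 samples, and 411 and 445 in vehicle samples. Its FGF2+U0126 arrays lay above even the vehicle arrays, though that difference was not called (0.26 ± 0.09, limma adjusted p = 0.0523). Against FGF2 the change was 1.16 ± 0.09 (adjusted p = 2.89e-06). Ependymal and choroid plexus markers (5 of 9 higher in FGF2+U0126 against FGF2) and the astrocyte markers above moved the same way, and their part in this change was not tested. Dhrs3 had 68.1 and 56.2 in FGF2+U0126 samples, 129 and 136 in FGF2+SB202190 samples, 133 and 133 in FGF2 samples, and 219 and 242 in vehicle samples. It fell with U0126, as Aldh1a2 did (-1.07 ± 0.14 against FGF2, adjusted p = 1.10e-04). Rdh10 fell likewise (-0.65 ± 0.08, adjusted p = 1.14e-04), to 782 and 754, against 1273 and 1125 in FGF2 samples.

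Stra6, a membrane receptor that takes up retinol, was the 1 gene of this list that was higher in FGF2 than in vehicle. Its signal was 3.38 and 5.26 in FGF2+U0126 samples, 32.4 and 28.4 in FGF2+SB202190 samples, 54.7 and 51.5 in FGF2 samples, and 25.1 and 11.5 in vehicle samples. FGF2 arrays were highest and FGF2+U0126 arrays lowest, but only 1 value passed 53.3. The log2 change was 1.75 ± 0.46 in FGF2 against vehicle (adjusted p = 0.00846), a call lost without vehicle replicate 2 (1.26, adjusted p = 0.0762), FGF2 replicate 1 (1.72, adjusted p = 0.0585) or FGF2 replicate 2 (1.77, adjusted p = 0.0523). It was -3.09 ± 0.46 in FGF2+U0126 against FGF2 (adjusted p = 3.89e-04). The FGF2+U0126 level was not told apart from background, so the size is uncertain, and it ran from -3.45 to -1.74 over 17 alternatives, all of which kept the call. Rxra was higher in FGF2+U0126 than in FGF2 (0.60 ± 0.20, adjusted p = 0.0457), a call that 11 of 18 alternatives lost, among them leaving out either array of vehicle, FGF2 or FGF2+U0126 (0.45 to 0.75). The differences of Rxrb (0.33 ± 0.15, adjusted p = 0.159), Rarg (-0.09 ± 0.16, adjusted p = 0.736) and Rara (-0.05 ± 0.58, adjusted p = 0.961) were not called.

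SB202190 added to FGF2 gave 2 lower and 0 higher limma calls among these 25, with 1.7% and 1.32% of all genes called in these directions. They were Rdh5 (-0.43 ± 0.09, adjusted p = 0.0297) and Fabp5 (-0.33 ± 0.07, adjusted p = 0.0315), and 7 alternatives lost each. Leaving out either FGF2 array or FGF2+SB202190 replicate 1 lost both calls, and leaving out FGF2+SB202190 replicate 2 lost that of Rdh5, at changes of -0.47 to -0.38 for Rdh5 and -0.42 to -0.24 for Fabp5. Rdh10, Dhrs3, Rara, Rarg, Rxra and Rxrb were not called, with log2 changes of -0.20 ± 0.08, -0.0048 ± 0.14, -1.88 ± 0.58, -0.08 ± 0.16, 0.10 ± 0.20 and 0.15 ± 0.15.

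Against vehicle, 7 were lower in FGF2+U0126, where 15.0% of all genes were, and 2 higher, where 16.7% were. Those of smallest p were Rdh10 (-1.22 ± 0.08), Dhrs3 (-1.83 ± 0.14), Fabp5 (-0.65 ± 0.07) and Pdia3 (-0.37 ± 0.06), of which Pdia3 lost its call under median centring (-0.10, adjusted p = 0.399). Rarg was lower by -0.67 ± 0.16 (adjusted p = 0.00583), a call lost without vehicle replicate 1 (-0.54, adjusted p = 0.0659), without FGF2+U0126 replicate 1 (-0.49, adjusted p = 0.0664) and from the mean of its probe sets (adjusted p = 0.0544). Stra6 was lower by -1.34 ± 0.46 (adjusted p = 0.0406), a call that 9 of 16 alternatives lost, at -1.85 to -0.83 leaving out 1 array. Rara (-1.05 ± 0.58, adjusted p = 0.198), Rxra (-0.26 ± 0.20, adjusted p = 0.368) and Rxrb (-0.39 ± 0.15, adjusted p = 0.0753) were not called, and Rxrb was called without either FGF2 array and with only the arrays compared. Fewer of these genes were called without FGF2+U0126 replicate 1, a fit with 1 array left in that group, and fewer of all genes were too.

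In FGF2+SB202190 12 were lower than in vehicle, where 17.8% of all genes were, and 2 higher, where 18.1% were. Those of smallest p were Fabp5 (-1.12 ± 0.07), Rdh5 (-1.32 ± 0.09), Rdh10 (-0.77 ± 0.08) and, among those higher, Dhcr7 (0.61 ± 0.11), an enzyme at the branch between cholesterol and vitamin D. Dhrs3 was lower by -0.76 ± 0.14 (adjusted p = 6.16e-04). The receptor genes Rara (-2.88 ± 0.58, adjusted p = 0.00161), Rarg (-0.66 ± 0.16, adjusted p = 0.00531), Rxra (-0.76 ± 0.20, adjusted p = 0.00853) and Rxrb (-0.57 ± 0.15, adjusted p = 0.0112) were lower too. Rara had a signal of 22.8 and 13.2 in FGF2+U0126 samples, 7.58 and 1.31 in FGF2+SB202190 samples, 18.6 and 18.4 in FGF2 samples, and 33.5 and 56.4 in vehicle samples. Of these 8 values 1 passed 53.3, so the size of its change is uncertain and ran from -3.73 to -2.02 leaving out 1 array. Its mean log2 value over all arrays, 4.15, lay close to the filter at 3.83 and was raised by vehicle, so the call is uncertain too. The Rarg call was lost without vehicle replicate 1 (-0.53, adjusted p = 0.0617) or FGF2+SB202190 replicate 1 (-0.50, adjusted p = 0.0669). That of Rxra was lost without FGF2+SB202190 replicate 2 (-0.54, adjusted p = 0.0946) and from the mean of its probe sets (-0.44, adjusted p = 0.261). That of Rxrb was lost without vehicle replicate 2 (-0.47, adjusted p = 0.0911), without FGF2+SB202190 replicate 1 (-0.38, adjusted p = 0.134), under median centring and without the intensity trend. Fewer of the listed genes were called without FGF2+SB202190 replicate 1 or 2, fits with 1 array left in that group, and fewer of all genes were too.

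Between the inhibitors, 4 were higher with U0126, where 12.4% of all genes were, and 4 lower, where 10.3% were. Rdh5 differed by 1.58 ± 0.09 (adjusted p = 2.07e-07), Dhrs3 by -1.07 ± 0.14 (adjusted p = 1.05e-04), Fabp5 by 0.47 ± 0.07 (adjusted p = 5.80e-04) and Rdh10 by -0.45 ± 0.08 (adjusted p = 0.00159), the last not called without the intensity trend (adjusted p = 0.0523). Rara was called at 1.82 ± 0.58 (adjusted p = 0.0390), on the low signals above, and 10 of 16 alternatives lost it, at 0.97 to 2.68 leaving out 1 array. Rxra (0.50 ± 0.20, adjusted p = 0.0883), Rxrb (0.18 ± 0.15, adjusted p = 0.454) and Rarg (-0.0086 ± 0.16, adjusted p = 0.978) were not called, and Rxra was called without FGF2+SB202190 replicate 1 (0.73, adjusted p = 0.0483).

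**Figure D4:**
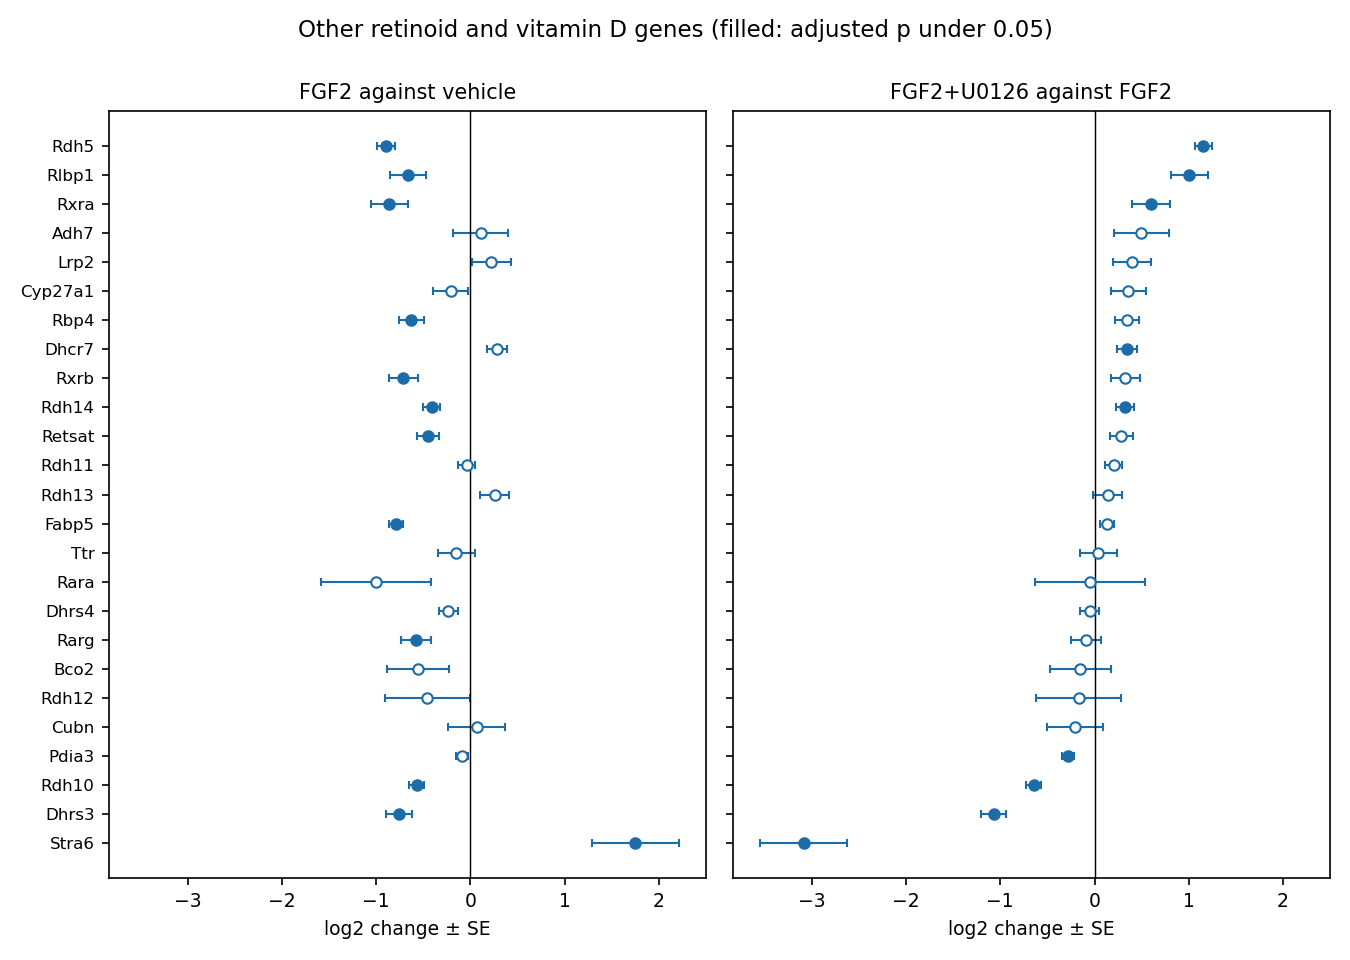
Log2 change with its SE (x axis) of the 25 other retinoid and vitamin D genes that passed the filter, for FGF2 against vehicle and FGF2+U0126 against FGF2, ordered by the second. Filled points passed an adjusted p of 0.05. In the first panel 11 filled points lie left of 0 and Stra6 lies right of it, and in the second Rdh5 is at the upper end and Stra6 at the lower.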

How the data were processed

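Per the labels, 8 mouse cerebral cortex RNA samples went onto 1 array each, 2 per group. The authors deposited 1 table of intensity values on a linear scale, and the algorithm behind them is not given in the sources used here. Symbols came from the platform annotation (34958 probe sets with 1 symbol, 932 with several, 9211 with none). The deposited values were taken to log2(value + 1.77), with the 10th percentile of all values as the pseudocount, and quantile normalized. For each gene the brightest probe set by mean was kept, genes with a mean below the 40th percentile (3.83 on that log2 scale) were left out, and 13173 were tested with limma 3.58.1 in R 4.3.3 (all 8 arrays in 1 fit, intensity trend, two-sided, 9.04 prior and 4 residual degrees of freedom, Benjamini and Hochberg within each of 6 comparisons). The steps were tested on simulated data.

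The members and lists were chosen with earlier results of these data known. The text names all 9 members, up to 4 called genes of smallest p in each list and comparison, the retinoid genes Rdh10, Dhrs3, Rara, Rarg, Rxra, Rxrb, Rxrg and Cyp27b1 in any case, and the 5 genes most like Cyp24a1 and Crabp2 by Pearson correlation. Stra6 was named beyond that rule after its values were seen. Values with ± are SE for log2 changes and SD over 2 arrays for signals. The number of arrays limits the precision. Alternatives changed the normalization, pseudocount, filter, probe set choice, variance model, samples fitted and replicate block, or left out 1 array.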

Additional observations from a re-analysis of the deposited data

How the results depend on the processing

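Each of the 6 comparisons was recomputed under up to 18 alternatives, which gave 2126 log2 changes of single genes besides the main ones. Of these, 1941 were counted as the same, 124 lost a call, 18 gained a call, 16 untested values moved and 27 changed sign. For tested genes, the same meant an unchanged direction and side of the threshold. For Cyp24a1 and Crabp2, which had no test, it meant a shift smaller than the fitted spread between arrays, whatever the sign. Cyp24a1 in FGF2+SB202190 against FGF2 was thus counted as the same, though it ran from -0.19 to 0.15 leaving out 1 array. The alternatives for the lists of other pathway and target genes were added after seeing the data, and the target genes were recomputed in FGF2 against vehicle and in each inhibitor group against FGF2 alone. Median centring moved the median of all genes to 0.16 for FGF2, 0.19 for FGF2+U0126 and 0.18 for FGF2+SB202190 against vehicle, with 4015 genes higher and 1481 lower, 4029 and 1014, and 4059 and 1438, where quantile normalization gave 2489 and 2504, 2197 and 1982, and 2378 and 2345. No change that reversed was called. Aldh1a3 in FGF2+U0126 against vehicle was -0.11 without normalization and -0.58 to 0.88 leaving out 1 array, Crabp1 there -0.19 to 0.42, Cyp26b1 in FGF2+SB202190 against FGF2 -0.040 to 0.13, and Vdr in FGF2+U0126 against FGF2+SB202190 -1.25 to 0.61. Against FGF2 with U0126, Rarg was 0.072 from the mean of its probe sets and -0.27 to 0.089 leaving out 1 array, and Rara -0.34 to 0.23. With SB202190, Dhrs3 was 1.9e-04 under median centring and -0.038 to 0.029 leaving out 1 array, Rxra was -0.15 from the mean of its probe sets and -0.13 to 0.32, Rarg -0.24 to 0.079 and Rxrb -0.077 to 0.37. Rxra in FGF2+U0126 against vehicle was 0.15 from the mean of its probe sets. In FGF2+U0126 against FGF2+SB202190, Rarg was 0.012 without normalization, 0.013 under median centring, 0.13 from the mean of its probe sets and -0.19 to 0.17 leaving out 1 array, and Rxrb -0.011 to 0.37. The count of members called in FGF2+SB202190 against vehicle, 5, changed in some fits that left out 1 array, as did that of all genes. The pathway list had 9 calls in FGF2+U0126 against FGF2 and 5 to 9 leaving out 1 array, 9 in FGF2+U0126 against vehicle and 5 to 9, and 14 in FGF2+SB202190 against vehicle and 8 to 14. With SB202190 against FGF2 it had 2 calls. It had 0 under median centring, where 235 of 13177 genes were called, and with only the arrays compared, where 395 of 13121 were. The target list had 5 calls, and 3 from the mean of probe sets, where 170 of 12469 genes were called. Both lists had 0 calls without the intensity trend and lost calls in some fits that left out 1 array. Without the intensity trend no gene at all was called in that comparison. Deviations of same-numbered samples correlated between -0.026 and 0.034 across all genes, with the group means taken out. No common shift was seen, but this cannot tell whether such samples shared a culture, day or animal. With the replicate block the members called were 6, 3 and 0 of 7 in FGF2 against vehicle, FGF2+U0126 against FGF2 and FGF2+SB202190 against FGF2. Of all 13173 genes, 4971, 2906 and 412 were called there. Members called were 5, 6 and 3 in FGF2+U0126 against vehicle, FGF2+SB202190 against vehicle and FGF2+U0126 against FGF2+SB202190. Of all genes, 4162, 4698 and 2993 were. Vdr was then called lower in FGF2+SB202190 than in vehicle (adjusted p = 0.0244).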

Other observations

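Of 28 genes known to answer to retinoic acid or to the vitamin D hormone in other cells, 24 were in the table and 21 were tested. In FGF2 against vehicle 4 were higher, where 18.9% of all genes were, and 5 lower, where 19.0% were, with a median log2 change of 0.10. The secreted protein Igfbp3 rose by 2.16 ± 0.06 (adjusted p = 5.93e-11) and Dusp6, a phosphatase that acts on ERK, by 2.24 ± 0.07 (adjusted p = 2.49e-10). The transglutaminase Tgm2 fell by 1.81 ± 0.10 (adjusted p = 3.38e-08) and thrombomodulin, Thbd, by 0.96 ± 0.09 (adjusted p = 1.86e-06). Tgm2 had a signal of 323 and 333 in FGF2+U0126 samples, 166 and 146 in FGF2+SB202190 samples, 242 and 209 in FGF2 samples, and 746 and 820.1 in vehicle samples, so no array with FGF2 came near vehicle.

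U0126 added to FGF2 lowered 7 of the 21, where 10.5% of all genes were lower, and raised 2, where 11.7% were higher. The early response gene Egr1 had a signal of 201 and 205 in FGF2+U0126 samples, 725 and 826 in FGF2+SB202190 samples, 549 and 509.9 in FGF2 samples, and 539.6 and 536 in vehicle samples, so that the 2 inhibitor groups lay on opposite sides of FGF2. It fell by 1.37 ± 0.09 with U0126 (adjusted p = 3.32e-07), as did Thbd by 1.27 ± 0.09 (adjusted p = 5.79e-07), Igfbp3 by 0.79 ± 0.06 (adjusted p = 1.25e-06) and the orphan receptor gene Nr2f1 by 0.55 ± 0.07 (adjusted p = 7.34e-05). SB202190 added to FGF2 raised 2, where 1.32% of all genes were higher, and lowered 3, where 1.7% were lower. Egr1 rose by 0.54 ± 0.09 (adjusted p = 0.00571), while Thbd fell by 0.65 ± 0.09 (adjusted p = 0.00194), Tgm2 by 0.53 ± 0.10 (adjusted p = 0.0151) and Igfbp3 by 0.34 ± 0.06 (adjusted p = 0.00863). The Egr1 call was lost without FGF2 replicate 2 (0.49, adjusted p = 0.0828) and without FGF2+SB202190 replicate 2 (0.43, adjusted p = 0.0913). That of Igfbp3 was lost under median centring (-0.33, adjusted p = 0.0538) and from the mean of its probe sets (-0.31, adjusted p = 0.0527). It was also lost without FGF2 replicate 1 (-0.30), FGF2 replicate 2 (-0.38) or FGF2+SB202190 replicate 1 (-0.30). That of Tgm2 was lost from the mean of its probe sets (-0.38, adjusted p = 0.404). It was also lost without FGF2 replicate 1 (-0.43) or FGF2+SB202190 replicate 2 (-0.43). Thbd was thus lower with FGF2 than with vehicle and lower again with either inhibitor, at 187 and 202 in FGF2+U0126, 307 and 288 in FGF2+SB202190, 449.6 and 491 in FGF2, and 899 and 914 in vehicle samples.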
